A study of Mus musculus with 3 samples.

Results

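The genes examined were 10 core pluripotency factors and stable markers of mouse embryonic stem (ES) cells: Pou5f1, Sox2, Nanog, Sall4, Zfp42, Dppa4, Dppa5a, Lin28a, Utf1 and Tdgf1. They were taken by symbol from a table of 15311 genes, and all 10 had a row. All 10 were among the 13829 genes that passed a minimum mean of 0.5 CPM (counts scaled to a common library total with TMM factors) over the 3 libraries. All 10 carry the deposited class code for an active promoter rather than a bivalent one.

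The libraries came from mouse ES cells in which a doxycycline-induced transgene (1 µg/ml, CMV promoter under rtTA control) supplied a YFP-tagged (yellow fluorescent protein) copy of H2A.Z, a histone variant. In the wild-type group (2 libraries) the fusion had the normal H2A.Z sequence. In the K3R3 group (1 library) 3 lysines near the C-terminus were replaced by arginine, which removes sites that can be ubiquitylated. Both kinds of line were YFP-sorted and carried a lentiviral hairpin directed at the 3′ UTR of endogenous H2A.Z, selected with blasticidin. The labels name 2 hairpins and do not assign them to libraries. The labels give V6.5 (129SvJaexC57BL/6) as strain, and the protocol names KH2 ES cells as the parent of the transgenic lines. The cells were grown with serum and LIF and left their feeder fibroblasts for the last passage. Neither the number of clones nor the origin of the wild-type libraries from separate cultures is stated, so the spread behind each p-value may be technical only.

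As background, Oct4 (the product of Pou5f1) and Sox2 bind DNA side by side and, with Nanog, occupy the control regions of each other's genes and of many genes active in ES cells. Loss of Oct4 or Sox2 ends self-renewal, whereas Nanog varies from cell to cell and can be lost for a time. The other genes act beside this circuit as a zinc finger repressor of differentiation (Sall4), chromatin-associated proteins (Utf1, Dppa4), RNA-binding proteins (Lin28a, Dppa5a) and a co-receptor of Nodal signalling (Tdgf1), or serve mainly as a marker of the undifferentiated state (Zfp42, known as Rex1).

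Library totals ran from 21614693 to 25426228 counts. The wild-type libraries differed by more than counting noise (chi-square per degree of freedom 24.3 over genes) and were kept as separate samples. H2afz, the gene of H2A.Z, stood at 219 and 232 CPM in the wild-type libraries and 222 CPM in K3R3. It checks neither knockdown nor label, since the hairpin was common to both groups and transgene transcripts can be counted in H2afz. With K3R3 in 1 library only, the spread came from the wild-type pair over all genes (1 residual degree of freedom), and K3R3 was assumed to vary like it. Each SE and p-value rests on the trend of dispersion with abundance, not on the gene's own replicate difference. Pou5f1 and Sox2 thus had SEs of 0.19 and 0.18, though replicate 2 differed from replicate 1 by -0.74 and 0.03 log2 units.

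The 10 genes spanned more than 2 orders of magnitude per length, and their order was nearly the same in every library. On the deposited RPKM scale (counts scaled by gene length and library total), Dppa5a was highest at 1875 and 1215 in wild-type replicates 1 and 2 and 1124 in K3R3, ranks 4, 6 and 6 of the 15311 genes. Tdgf1 followed at 484, 429 and 389 RPKM. Pou5f1 (238, 145 and 162 RPKM), Sox2 (175, 181 and 127 RPKM) and Zfp42 (136, 144 and 147 RPKM) formed a middle group. Within it the ranges of neighbours overlapped, so their order could not be told from the libraries. Lin28a (84.1 to 104 RPKM), Dppa4 (62.2 to 80.0 RPKM), Sall4 (22.4 to 28.3 RPKM), Nanog (14.7 to 19.7 RPKM) and Utf1 (5.87 to 9.77 RPKM) came below, each without overlap with the next.

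**Figure D1:**
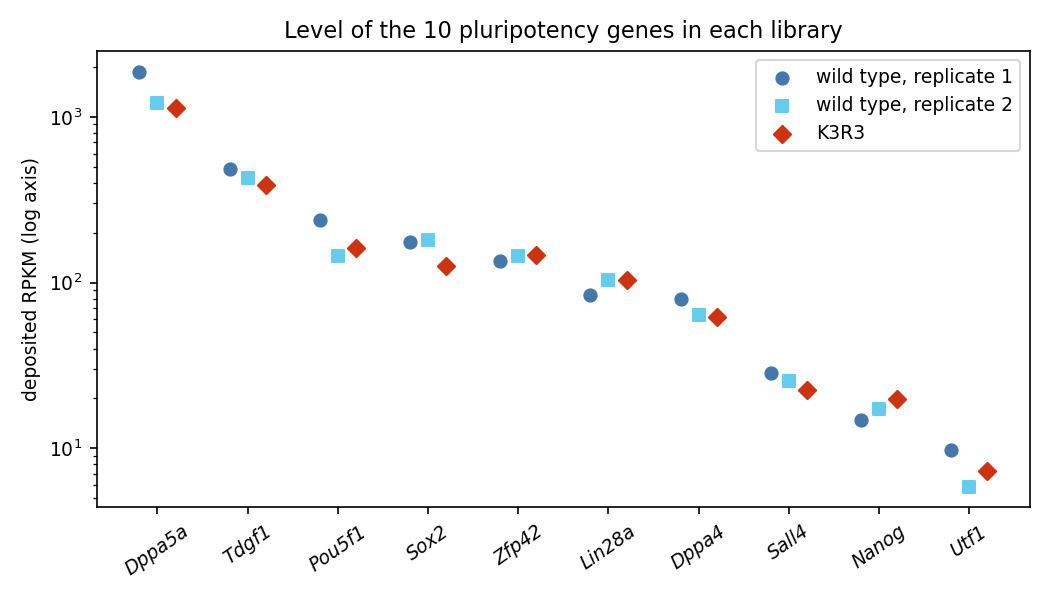
Deposited RPKM (log axis) of each of the 10 genes in the wild-type replicates 1 (circles) and 2 (squares) and in K3R3 (diamonds), ordered by mean level. Dppa5a is highest (1124 to 1875 RPKM) and Utf1 lowest (5.87 to 9.77 RPKM) in each library, and wild-type replicate 1 stands apart from the other 2 libraries for Dppa5a, Pou5f1 and Utf1.

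All 10 genes were detected in each library, at a summed 3125, 2330 and 2164 RPKM (wild-type replicates 1 and 2, then K3R3). Dppa5a alone gave 60.0%, 52.1% and 51.9% of these sums, and without it they were 1250, 1115 and 1041 RPKM. Marker lists of other cell types summed to 198 to 257 RPKM for 18 fibroblast genes, most of it Fn1 and Sparc, and 26.3 to 47.2 RPKM for 11 primitive endoderm genes. They summed to 17.5 to 45.5 RPKM for 9 trophoblast genes, 19.9 to 25.1 RPKM for 9 neural genes and 1.68 to 4.14 RPKM for 7 mesendoderm genes. In bulk RNA, fewer cells of a type and less RNA per cell cannot be told apart.

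Sox2 and Dppa5a fell in K3R3, and the other 8 genes were not called. Over all tested genes 2.57% were called, 0.542% lower and 2.02% higher (edgeR's quasi-likelihood test, Benjamini-Hochberg adjustment over all genes at 0.05), and of the 2544 genes with a mean of 100 CPM or more 1.3% were called lower. Both calls were lost with a likelihood ratio test, with DESeq2 (which called 0.188% of genes lower and 0.239% higher), and with library totals implied by the RPKM values. That last scaling moved the median of all genes up by 0.12 log2 units. Relative to the median gene Sox2 stood at -0.60 and Dppa5a at -0.57 under either scaling. A change of totals shifts all genes by nearly the same amount, so this sameness is built in and adds nothing to the calls.

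Of the 10 genes, 6 lay below both wild-type libraries, 3 between them and 1 above both. Over all tested genes 34.2% lay below both, 31.9% between and 33.9% above both. With the implied totals these became 5 below and 2 above for the 10 genes, and 19.2% below and 48.7% above for all. Abundant genes sat low in K3R3 under TMM scaling: among the 2544 genes just named, 61.3% lay below both wild-type libraries, 81.9% had a fitted log2 difference under 0 and the median was -0.13. With the implied totals 31.9% of them lay below both and their median was -0.01, while the median of the 10 genes was -0.22. For the 10 genes the fitted difference was under 0 in 8, against 52% of all tested genes. The 10 genes had a median of -0.35, and the 8 of them with at least 100 CPM a median of -0.36. Over all tested genes the median was -0.01. For the 10 genes the median was -0.48 against wild-type replicate 1 and -0.13 against replicate 2, beside -0.18 between the wild-type replicates themselves.

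**Figure D2:**
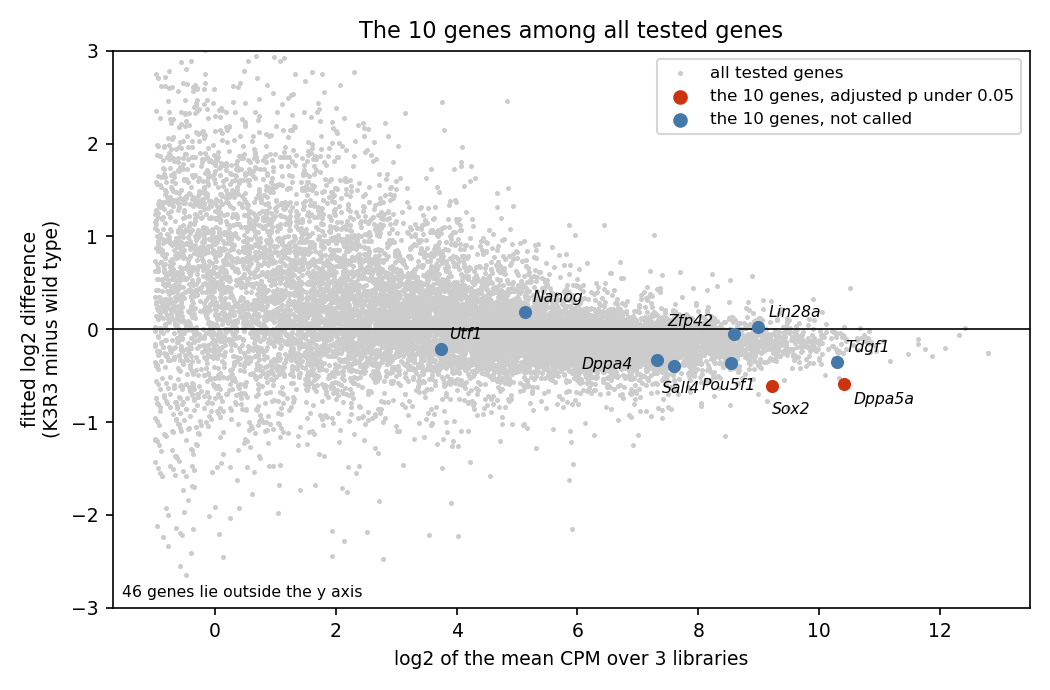
Fitted log2 difference (K3R3 minus wild type) against the log2 of the mean CPM for the 13829 tested genes (grey) and the 10 pluripotency genes (red where called, blue where not); 46 genes lie beyond the y axis. Sox2 (-0.62) and Dppa5a (-0.59) sit at the lower edge of the cloud of abundant genes, and Nanog (0.18) and Lin28a (0.02) lie above 0.

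Pou5f1, which encodes the POU-domain factor Oct4, differed more between the wild-type libraries than between K3R3 and the nearer of them. It stood at 500 CPM in wild-type replicate 1, 300 CPM in replicate 2 and 311 CPM in K3R3. The K3R3 library thus lay between the wild-type libraries and close to replicate 2 (log2 difference -0.69 against replicate 1 and 0.05 against replicate 2). The fitted log2 difference was -0.36 (SE 0.19; adjusted p = 0.46), with a 95% interval of -0.73 to 0.01. Counting error is small at this depth: the exact 95% Poisson interval was 491 to 510 CPM in replicate 1 and 293 to 306 CPM in replicate 2, which do not meet. Reads could also be shared with copies of the gene. RefSeq names 7 of them, of which 1, Gm5712, had a row, with 42, 29 and 43 counts.

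Sox2, the HMG-box partner of Oct4, gave the clearest difference of the 10. It stood at 668 and 680 CPM in the wild-type libraries and 440 CPM in K3R3. The wild-type libraries differed by 0.03 log2 units, and the K3R3 level was 0.659 and 0.647 of theirs. The fitted log2 difference was -0.62 (SE 0.18; edgeR adjusted p = 0.032), with an interval of -0.97 to -0.26. It was the only one of the 10 genes to lie more than 0.5 log2 units from wild-type replicate 2. Across all tested genes, 23.4% did so. The adjusted p was 0.080 with the likelihood ratio test, 0.14 with the implied totals and 0.23 with DESeq2. In the authors' deposited table the Sox2 ratio of wild type to K3R3 was 1.55 with an unadjusted p of 0.0059. Sox2 lies within the body of the non-coding gene Sox2ot on the same strand, without shared exons in GENCODE M21, and Sox2ot had 25, 62 and 78 counts.

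Nanog, the homeodomain factor of the circuit, was the only one of the 10 above both wild-type libraries by CPM (with the implied totals Zfp42 was as well). It stood at 31.1 and 35.7 CPM in the wild-type replicates and at 37.9 in K3R3. Its exact 95% Poisson intervals were 33.3 to 38.1 CPM in replicate 2 and 35.5 to 40.3 CPM in K3R3, which overlap. The fitted log2 difference was 0.18 (SE 0.28; adjusted p = 0.98), with an interval of -0.36 to 0.73. The value fitted for Sox2 lay outside this interval, but the interval of Sox2 (-0.97 to -0.26) overlapped it. The difference between these genes was not tested. RefSeq names 2 copies of Nanog whose reads the counting could not be shown to separate.

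Oct4 and Sox2 can bind adjoining DNA sites, and the promoters of the members were searched on both strands for 4 motifs. Binding of either factor at these genes was not tested. RefSeq windows (GRCm38.p6) from 250 bases before to 50 after each start were matched for 7 of the 10 genes. Sall4, Dppa4 and Dppa5a had no window. The composite CATTGTNATGCAAA, in which the Sox site CATTGT and the octamer core ATGCAAA adjoin, was found in 2 of 32851 windows (0.00609%). Both belong to Nanog, whose overlapping windows hold the same site. The octamer ATGCAAAT, which includes the core, was in 1.74% of windows (1.97% of genes with a window) and in 1 of the 7 genes, Zfp42. The core was in 4.63% of windows (5.24% of genes) and in Sox2, Nanog and Zfp42. The Sox site was in 12.6% of windows (14.3% of genes) and in Nanog, Lin28a and Pou5f1. The windows below are shown to compare the composite match in Nanog with the partial matches in Sox2 and Zfp42. They are given on the strand of the gene, with the match in capitals:
Nanog (chr6:122707406-122707435, + strand, reverse complement of the composite): cagcttctTTTGCATTACAATGtccatggt
Sox2 (chr3:34649885-34649913, + strand, octamer core): cgccccctttcATGCAAAaccctctggcg
Zfp42 (chr8:43307177-43307206, - strand, reverse complement of the octamer): tctgaagaggcATTTGCATaactgagcaag

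The Nanog match starts 75 bases before the start site of one window and 151 before that of the other. The Sox2 match starts 99 bases and the Zfp42 match 186 bases before the start. Of these 3 genes Sox2 was called in K3R3 and Nanog and Zfp42 were not. A match is a description of letters in these windows and shows no binding, and the enhancers of these genes were not searched.

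Sall4, a zinc finger factor that works with Oct4 and Nanog, stood at 223 and 199 CPM in the wild-type replicates and at 161 in K3R3. K3R3 lay below both libraries, by 0.47 and 0.30 log2 units, and the wild-type libraries differed by 0.17 in size. The fitted log2 difference of -0.39 (SE 0.20; adjusted p = 0.46) was not called, with an interval of -0.78 to 0.00. Zfp42, a zinc finger gene used as a marker of undifferentiated cells, was close to level. It stood at 380 and 398 CPM in the wild-type replicates and at 376 in K3R3, a fitted log2 difference of -0.05 with an interval of -0.41 to 0.31. Its position just below both wild-type libraries turned to just above both on the RPKM scale (147 against 136 and 144 RPKM).

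Utf1, a chromatin-associated coactivator and the least abundant of the 10, stood at 17.6 and 10.4 CPM in the wild-type replicates and at 12.1 in K3R3. Replicate 1 was again high, and K3R3 lay between the wild-type libraries. Utf1 had 259 to 370 counts, for which counting error alone reached 12.4%, and its interval of -0.90 to 0.47 was the widest of the 10. Dppa4, a SAP-domain protein that binds chromatin together with Dppa2, stood at 191 and 150 CPM in the wild-type replicates and at 135 in K3R3. It was lower than both, but closer to replicate 2 (log2 difference -0.15) than replicate 2 was to replicate 1 (-0.35). The fitted value of -0.34 (SE 0.21; adjusted p = 0.64) was not called.

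Lin28a, which blocks maturation of let-7 microRNAs, was not called and differed little between the groups. It stood at 455 and 554 CPM in the wild-type replicates and at 511 in K3R3, between the wild-type libraries. The fitted log2 difference was 0.02 (SE 0.18), with an interval of -0.33 to 0.37. Dppa5a, a KH-domain RNA-binding protein, stood at 1861 and 1188 CPM in the wild-type replicates and at 1016 in K3R3. It fell by 0.59 log2 units in the fit (SE 0.17; edgeR adjusted p = 0.024; interval -0.91 to -0.26). Most of this came from replicate 1: K3R3 differed from it by -0.87 log2 units but from replicate 2 by only -0.23, while the wild-type replicates differed by -0.65. In the authors' deposited table the ratio of wild type to K3R3 was 1.51 with an unadjusted p of 0.40, and DESeq2 gave an adjusted p of 0.68. RefSeq names 2 further copies of Dppa5a, which the counting could not be shown to separate.

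Tdgf1, which encodes Cripto, the co-receptor through which Nodal signals, stood at 1449 and 1265 CPM in the wild-type replicates and at 1060 in K3R3. K3R3 lay below both, by 0.45 and 0.26 log2 units, against 0.20 in size between the wild-type libraries. The fitted log2 difference of -0.36 (SE 0.17) had an unadjusted p of 0.032 and an adjusted p of 0.36 from edgeR. Reads may be shared with 2 copies named in RefSeq. Tdgf1 was the only uncalled gene of the 10 with an unadjusted p under 0.05. Over all tested genes 3.33% were lower at that level.

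**Figure D3:**
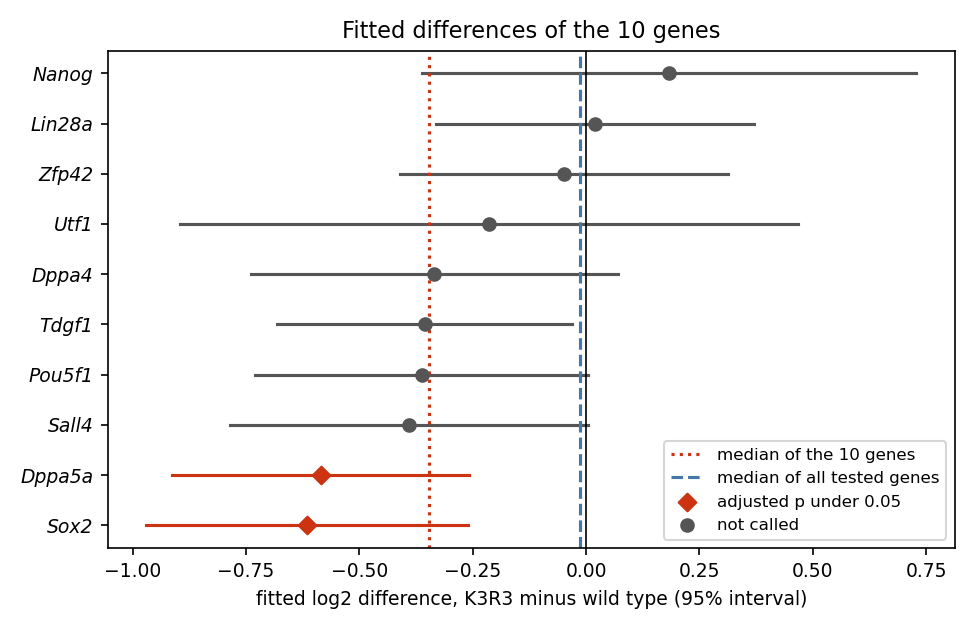
Fitted log2 difference (K3R3 minus wild type) of each of the 10 genes with its 95% interval; red diamonds mark Sox2 and Dppa5a, whose adjusted p is under 0.05. The dotted line is the median of the 10 genes (-0.35) and the dashed line that of all tested genes (-0.01); the intervals of Nanog, Lin28a, Zfp42 and Utf1 extend well to either side of 0.

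Wild-type replicate 1 stood apart for several members. Pou5f1, Utf1 and Dppa5a differed by more than 0.5 log2 units between the wild-type libraries (3 of 10), each higher in replicate 1 (ratios of replicate 1 to replicate 2 of 1.67, 1.69 and 1.57). Among all tested genes 23.2% differed by that much, which is not far from 3 of 10. Among the 2544 abundant genes, which include Pou5f1 and Dppa5a but not Utf1, 4.13% did. K3R3 lay nearer replicate 2 than replicate 1 for 8 of the 10 genes, against 55.4% of all tested genes. The exceptions were Sox2 and Zfp42, whose wild-type libraries differed by at most 0.07 log2 units. Marker genes of other cell types also differed between the wild-type libraries. Of 8 tested trophoblast genes 5 were more than 0.5 log2 units higher in replicate 1 and 0 in replicate 2, and of 18 fibroblast genes 6 were higher in replicate 1 and 5 in replicate 2. Among the keratins, Krt8 had 509, 151 and 502 counts, Krt18 937, 218 and 857, and Krt7 55, 13 and 23 in wild-type replicates 1 and 2 and K3R3. Of the contractile genes in the fibroblast list, Acta2 had 573, 217 and 386 counts and Tagln 771, 228 and 507. Scaled for depth, K3R3 lay between the wild-type replicates for all 5 of these genes. Krt8 stood at 24.2, 6.08 and 19.3 CPM and Krt18 at 44.6, 8.78 and 32.9 CPM, in the same order. The part of cell mixture in these differences was not tested.

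**Figure D4:**
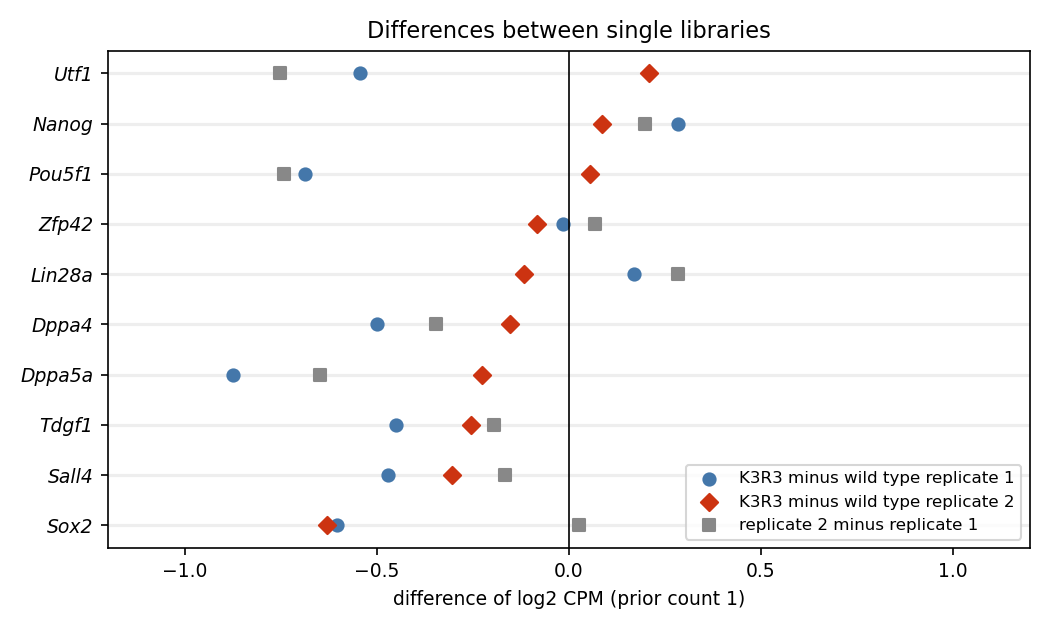
Differences of log2 CPM (prior count 1) between single libraries for each gene: K3R3 minus replicate 1 (circles), K3R3 minus replicate 2 (diamonds) and replicate 2 minus replicate 1 (squares). For Sox2 both K3R3 differences lie near -0.6 while the wild-type difference is 0.03; for Pou5f1, Utf1 and Dppa5a the square lies left of -0.6.

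Genes that surround the 10 in the network were read from 6 lists. Among 10 naive-state transcription factors, 3 fell and 0 rose. Of all tested genes 0.542% were called lower and 2.02% higher, and of those with at least 100 CPM 1.3% lower. All 10 factors lay below both wild-type libraries by TMM-scaled CPM, against 34.2% of all tested genes and 61.3% of those with at least 100 CPM. On the RPKM scale Klf5 lay above both (37.2 against 36.9 and 36.3 RPKM), and Stat3 and Prdm14 lay between. The median of the 10 factors was -0.35 (-0.38 and -0.41 against the single replicates, -0.23 with the implied totals). Tbx3, a T-box factor of self-renewal, stood at 165 and 133 CPM in the wild-type replicates and at 62.8 in K3R3 (log2 difference -1.25, SE 0.22). Tfcp2l1, a LIF-responsive factor, stood at 789 and 884 CPM against 464 CPM (-0.85), and Klf4 at 602 and 700 CPM against 380 CPM (-0.78). DESeq2 kept Tbx3 and Tfcp2l1. These falls were larger than that of Sox2 in the fit, though the differences between genes were not tested.

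Of 20 Oct4 and Sox2 targets and other genes enriched in ES cells, 3 fell and 0 rose. The called shares were again 0.542% lower and 2.02% higher of all tested genes, and 1.3% lower of those with at least 100 CPM. By TMM-scaled CPM 17 of the 20 lay below both wild-type libraries, beside the 34.2% and 61.3% given above. Of those 17, Spp1, L1td1, Jarid2, Foxd3 and Dnmt3l lay between the wild-type libraries on the RPKM scale. Their median was -0.33, made up of -0.43 against wild-type replicate 1 and -0.16 against replicate 2, and was -0.21 with the implied totals. Fbxo15, an F-box gene that needs Oct4 and Sox2 for its expression in ES cells, stood at 249 and 193 CPM in the wild-type replicates and at 122 in K3R3 (log2 difference -0.85). Kdm3a, a demethylase of histone H3 lysine 9, stood at 355 and 257 CPM against 176 CPM (-0.80). Dnmt3l, a cofactor of DNA methylation, stood at 209, 73.8 and 73.6 CPM, so that its fitted -0.94 came from replicate 1 alone (log2 difference 0.00 against replicate 2). DESeq2 called 0 of the 20.

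Of 20 protein partners of Oct4 and Nanog, such as subunits of the NuRD and BAF complexes, 0 were called in either direction and the median was -0.13 (0.00 with the implied totals). The largest difference was that of Arid3b (-0.44, adjusted p = 0.53). Of 18 tested genes of the Lin28 and let-7 axis, 0 were called, with a median of -0.03 (0.10 with the implied totals, where 1 of them passed). Ccnd2, a cyclin gene whose transcript let-7 can target, had the largest difference, at 30.4 and 33.9 CPM in the wild-type replicates and at 54.9 in K3R3 (log2 0.77, adjusted p = 0.093). Of 16 tested genes of the Nodal and Cripto axis, 0 were called, with a median of -0.08 that was 0.07 against wild-type replicate 2 and 0.04 with the implied totals. Nodal itself stood at 29.3, 17.6 and 15.6 CPM, high in replicate 1 only. The counts of 0 came from edgeR's quasi-likelihood test, which called 2.57% of all tested genes. DESeq2 also called 0 in each of these 3 lists.

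**Figure D5:**
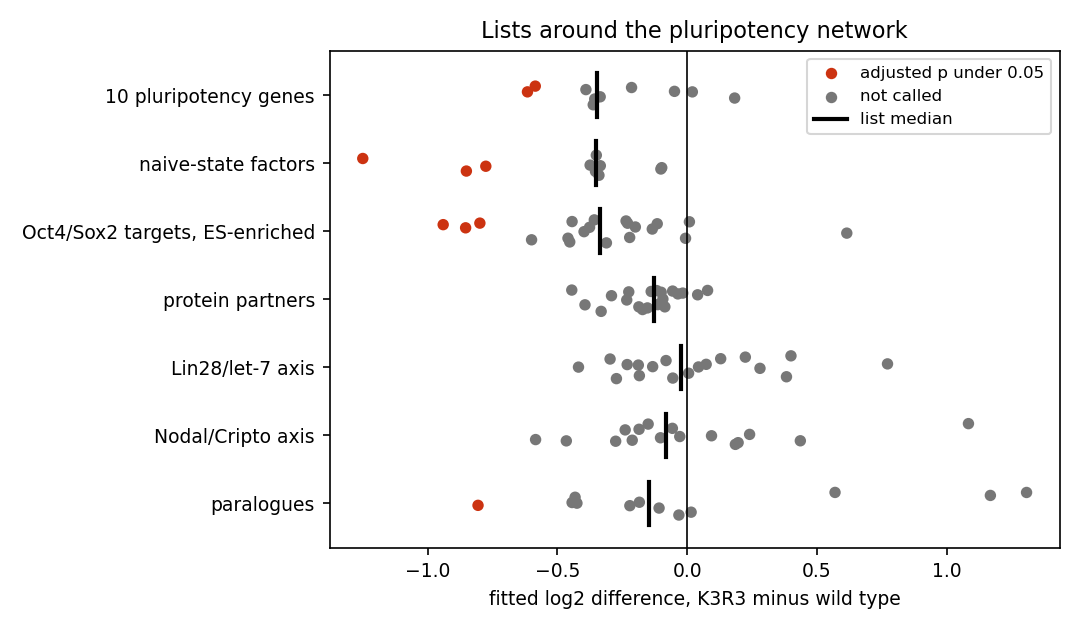
Fitted log2 differences (K3R3 minus wild type) of the tested members of each list, red where the adjusted p is under 0.05; black bars are list medians, and the vertical scatter within a list carries no value. The 10 pluripotency genes (-0.35), the naive-state factors (-0.35) and the Oct4 and Sox2 targets (-0.33) have the medians farthest below 0, ahead of the protein partners (-0.13), the Lin28 axis (-0.03) and the Nodal axis (-0.08).

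Markers of other cell types did not move as 1 group. Of all tested genes, edgeR's quasi-likelihood test called 0.542% lower and 2.02% higher, and DESeq2 called 0.188% lower and 0.239% higher. Among 11 tested primitive endoderm genes 4 fell (Cubn, Gata6, Lama1 and Col4a1) and 0 rose, with a median of -0.84. DESeq2 kept Cubn and Lama1. Thy1 rose among 18 fibroblast genes (median 0.42), T among 5 tested mesendoderm genes and Zic1 among 7 tested neural genes, and 0 of 8 tested trophoblast genes were called. Zic1, and 2 of the 5 mesendoderm genes (Mixl1 and Wnt3), passed the minimum mean only through their level in K3R3, as did 1 trophoblast gene, Cdx2. Zic1 had 4, 1 and 36 counts. DESeq2 did not call Thy1, T or Zic1 (adjusted p = 0.61, 0.16 and 0.81), and Postn and Lum (fibroblast), Afp and Ttr (endoderm), Gsc, Mesp1 and Evx1 (mesendoderm), Map2 (neural) and Elf5 (trophoblast) were not analysed here. T stood at 0.904 and 0.443 CPM in the wild-type replicates and at 4.96 in K3R3. The part of these markers in the values of the 10 genes was not tested.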

How the data were processed

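Polyadenylated RNA was sequenced from 2 wild-type and 1 K3R3 library. The authors deposited counts for each gene. HTSeq 0.5.4p1 and mm9 are named in the submitters' processing notes, while aligner, gene annotation and strand setting are not given in the sources used here. Without the strand setting, reads of Pou5f1, Sall4 and Lin28a cannot be told from those of antisense genes that overlap their exons in GENCODE M21. The smallest deposited count is 1 in each library. The RPKM values that the authors deposited use a single total per library, recovered here as the implied total. The deposited ratio, its log2 value and an unadjusted p-value are the authors' comparison (DESeq 1.10.1, per the submitters' processing notes); judged by the values, the deposited log2 fold is wild type over K3R3, opposite to its header.

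Counts were tested with edgeR 4.0.16 in R 4.3.3: TMM scaling, a minimum mean of 0.5 CPM, and the two-sided quasi-likelihood test adjusted by Benjamini-Hochberg over 13829 genes at 0.05. With an infinite prior, the fit's p-values rest on the trend of dispersion with abundance. The SE is the log2 difference divided by the square root of the F statistic, and intervals are normal 95% intervals. Differences between single libraries use log2 CPM with a prior count of 1. Poisson intervals cover counting error only. Scripts were tested on simulated data. All 10 genes are named, and from each other list every called gene or, where there was none, the one with the largest difference (for the Nodal axis it is not reported here); Nodal, the keratins, Acta2, Tagln, Mixl1, Wnt3, Cdx2, Gm5712, Sox2ot and the called marker genes were chosen with their values in view. The genes and lists were chosen with earlier results of these data known. Alternatives were another scaling, filter or test (DESeq2 1.42.0) and leaving out each wild-type library.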

Additional observations from a re-analysis of the deposited data

How the results depend on the processing

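The 355 calls over all genes (280 higher, 75 lower) became 59 with DESeq2 (33 higher, 26 lower), and the higher calls became 466 with library totals implied by RPKM. The 2 called members became 0 with the implied totals, the likelihood ratio test and DESeq2. For Sox2 (log2 -0.49 with the implied totals) the adjusted p over the alternatives with a test ran from 0.028 to 0.23, and for Dppa5a (-0.46 there) from 0.021 to 0.68. Members above both wild-type libraries numbered 2 instead of 1 with the implied totals, the addition being Zfp42, whose fitted log2 difference turned from -0.05 to 0.0744 there and whose values on the RPKM scale were 0.12 and 0.0299 log2 units above the wild-type replicates. Calls in the other 6 lists went from 7 to 2 with DESeq2. The median of the 10 genes ranged from -0.48 without wild-type replicate 2 to -0.13 without replicate 1; with 1 library on each side these are values with no test, and no calls could be counted. Of 60 values for single members under alternatives with a test, 53 kept their direction and side of the threshold, 6 lost the call and 1 turned. Of 20 values without a test that leave out a wild-type library, 3 turned, all without replicate 1: Pou5f1 (-0.36 to 0.05), Utf1 (-0.21 to 0.21) and Lin28a (0.02 to -0.12). No paired analysis was possible because K3R3 has 1 library and its label carries no replicate number. Depth limits Utf1 most, with counting error up to 12.4%.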

Other observations

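Paralogues of the 10 genes were also read. Of 12 tested, 1 fell and 0 rose, with a median of -0.15. Over all tested genes 0.542% were called lower and 2.02% higher. Sall1, a zinc finger paralogue of Sall4, stood at 136 and 150 CPM in the wild-type replicates and at 81.8 in K3R3 (log2 difference -0.81, SE 0.22; edgeR adjusted p = 0.015), whereas DESeq2 called 0 of the 12. Sall2, named after its values were seen, went the other way, at 5.47 and 5.80 CPM in the wild-type replicates and at 12.7 in K3R3 (log2 difference 1.17; adjusted p = 0.062). Sall4 itself lay at -0.39. Lin28b, the paralogue of Lin28a, stood at 112, 135 and 109 CPM, and Dppa2, the partner of Dppa4, at 138, 127 and 97.3 CPM (-0.44; adjusted p = 0.39).

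Dppa3, a maternal factor, was named after its values were seen. By CPM it was the 1 gene among the 20 Oct4 and Sox2 targets to lie above both wild-type libraries. It stood at 39.1 and 23.2 CPM in the wild-type replicates and at 47.6 in K3R3 (log2 difference 0.61, edgeR adjusted p = 0.30). It lay in the opposite direction to Dppa4 and Dppa5a, which share its name but not its protein family.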
